A study of Mus musculus with 18 samples.

Results

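Interferon-stimulated genes are the transcripts that cells switch on when interferons bind their receptors. The set described here was a fixed list of 37 gene names, chosen with earlier results of these data known. The names were matched to the gene names of the deposited tables, and 36 of them had a row of their own among 25601 names. The remaining member, EIF2AK2, the double-stranded RNA-activated kinase that halts translation, was listed only in a row joined with GM6548 and was not used. The 36 genes comprised 4 transcription factors and signal transducers (IRF1, IRF7, IRF9 and STAT2), 2 genes of the ISG15 system (ISG15 and USP18), 3 IFIT genes (IFIT1, IFIT2 and IFIT3) and 5 genes of the oligoadenylate synthetase (OAS) family. They also held 7 interferon-inducible GTPases, 4 other antiviral effectors, 4 sensors of foreign nucleic acid, the chemokine gene CXCL10 and 6 other interferon-induced genes.

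The RNA came from LSK cells of C57Bl/6 mice. LSK cells are the bone marrow fraction that lacks lineage markers, carries cKit and Sca1 and contains the hematopoietic stem cells. Of the 6 groups, 2 were freshly sorted cells, from control mice and from mice that had received 2.5 Gy of Cs-137 radiation and recovered for at least 9 weeks. Each of these libraries pooled 3 mice. The other 4 groups began from 200 LSK cells of 1 mouse, which spent 6 days in medium with interleukin-6, interleukin-11, Flt3 ligand and stem cell factor (SCF) before a new sort for LSK cells. They were control and irradiated cells, each without and with DL1, which was read as the Notch ligand Delta-like 1. Its form in the culture and the ages of the mice were not given in the sources used here. Each group had 3 libraries, 18 in all, and every culture received the same cytokines.

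Type I interferons signal through the receptor chains IFNAR1 and IFNAR2 and the kinases JAK1 and TYK2 to a complex that contains STAT2 and IRF9 and binds the interferon-stimulated response element. Interferon gamma signals through IFNGR1 and IFNGR2 to genes that carry a gamma-activated site. Stem cells are known to keep many of these genes active without infection, and interferon drives quiescent stem cells into cycle. By its title, the study asked how Notch and the myeloid transcription factor C/EBPα act against each other when irradiation harms stem cells.

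RefSeq promoters on GRCm38.p6 were at hand for 27 of the 36 genes and were searched over the 250 bases before the start site, on both strands. The core of the interferon-stimulated response element, GAAANNGAAA, was found in 13 of these 27 genes (48.2%), against 936 of 27025 genes (3.46%) among all promoters searched. The core of the gamma-activated site, TTCNNNGAA, was found in 6 of 27 (22.2%), against 8.13% of all genes. A set of 8 windows of promoters with the first core are shown because, among genes with this core that passed a test in the culture comparisons described further on, theirs had the largest changes, with every base of a matched core in capitals.
ISG15 (chr4:156200835-156200936, minus strand): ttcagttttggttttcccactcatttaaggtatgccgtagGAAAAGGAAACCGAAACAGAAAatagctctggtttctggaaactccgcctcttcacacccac
GBP2 (chr3:142620564-142620653, plus strand): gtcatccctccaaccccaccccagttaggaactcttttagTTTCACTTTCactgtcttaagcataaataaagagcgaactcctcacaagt
CXCL10 (chr5:92349053-92349139, minus strand): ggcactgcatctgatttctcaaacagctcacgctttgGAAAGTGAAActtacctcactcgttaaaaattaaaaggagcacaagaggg
BST2 (chr8:71537547-71537642, minus strand): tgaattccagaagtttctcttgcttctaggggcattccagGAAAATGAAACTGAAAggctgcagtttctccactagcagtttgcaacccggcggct
IGTP (chr11:58199482-58199555, plus strand): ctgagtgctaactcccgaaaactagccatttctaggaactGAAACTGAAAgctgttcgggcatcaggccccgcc
OAS3 (chr5:120777685-120777774, minus strand): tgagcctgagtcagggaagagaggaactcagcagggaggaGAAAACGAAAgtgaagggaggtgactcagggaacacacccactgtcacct
OAS1A (chr5:120907526-120907585, minus strand): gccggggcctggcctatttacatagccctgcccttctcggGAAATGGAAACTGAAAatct
IRGM1 (chr11:48871421-48871490, minus strand): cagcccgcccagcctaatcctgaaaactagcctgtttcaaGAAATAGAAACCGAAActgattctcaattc

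Each window is read 5′ to 3′ on the strand of its gene. In ISG15 the 3 core matches overlapped, and in BST2, OAS1A and IRGM1 the 2 matches did. The match in GBP2 lay on the opposite strand. In BST2 a gamma-activated core starting at -136 from the start site overlapped the first response element core at -130. A match is a description of the letters in this window, and the measurements below are of RNA alone.

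Transcript levels were deposited as FPKM, fragments scaled by transcript length and by the mapped total. Between 16863 and 18200 names were above 0 in a library. Relative depth, read from the steps between the lowest values, ranged from 0.645 to 1 in freshly sorted libraries and from 0.488 to 1.09 in cultures, where irradiated replicate 2 with DL1 was the shallowest. The sort markers KIT and LY6A, which encodes Sca1, were present in every library, KIT between 31.6 and 119 FPKM. In bulk RNA, fewer cells of one type and less RNA per cell cannot be told apart. Levels below are mean FPKM ± SD with n = 3 libraries per group. Changes are differences of log2(FPKM + 1), given ± SE, with p from limma adjusted over all genes tested and a threshold of 0.05.

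In freshly sorted cells all 36 genes were measured above the test's minimum mean of 1 FPKM. Their group means in control cells ran from 3.68 FPKM for MX2, an interferon-inducible GTPase gene, to 125 for LGALS3BP, which encodes a secreted glycoprotein. None of the 36 passed the test between irradiated and control cells, where 13 of 12890 genes did (0.101%), and none had an unadjusted p under 0.05, against 885 of all genes. Log2 fold changes ran from -0.43 for IFIT3 to 0.42 for CXCL10 with adjusted p between 0.735 and 0.998, and 26 of the 36 were below 0. Their median was -0.090, against 0.0084 over all genes tested. In none did the 2 groups separate, while over all genes the irradiated group lay wholly above the control group in 7.42% and wholly below it in 5.28%.

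The sign of this median depended on 1 control library. ISG15, the ubiquitin-like protein joined to other proteins after interferon, was at 9.70, 23.0 and 9.58 FPKM in control replicates 1 to 3 and at 13.01, 8.17 and 17.4 in the irradiated replicates. RSAD2, the viperin enzyme that makes a chain-terminating nucleotide, was at 10.3, 25.04 and 11.5 in controls and at 10.4, 8.35 and 14.0 after irradiation. The T cell-attracting chemokine gene CXCL10 was at 5.57, 20.4 and 8.95 in controls and at 11.8, 9.44 and 24.1 after irradiation. Control replicate 2 was the highest of these 3 controls each time, and the irradiated values of ISG15 and RSAD2 reached both above and below at least 1 of the other 2 controls, while those of CXCL10 lay above both. Across the set, control replicate 2 was the highest control in 36 of 36 genes, against 30.5% of all genes tested, and the highest of the 6 libraries in 30. Without it the median log2 fold change of the set was 0.035, of the opposite sign, and still 0 genes passed. Among irradiated libraries, replicate 3 was the highest of its group in 25 genes and replicate 2 the lowest in 27.

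Markers of other cells also differed between these libraries. The summed FPKM of 6 monocyte markers was 106, 219 and 92.1 in the 3 controls and 115, 191 and 113 in the irradiated libraries. The 6 plasmacytoid dendritic cell markers summed to 8.35, 17.5 and 9.54 in controls and to 7.69, 17.8 and 10.6 after irradiation. Both sums were thus high in control replicate 2 and in irradiated replicate 2, although the interferon-stimulated genes were mostly lowest of their group in the latter. The 8 neutrophil markers summed to 2082, 4141 and 3618 in controls and to 2504, 1714 and 3660 after irradiation. Like most of the set, this sum was highest in control replicate 2 and in irradiated replicate 3 and lowest of its group in irradiated replicate 2. Control replicate 3 differed, since its sum was nearer to replicate 2 than to replicate 1, while it was the lowest control in 18 of the 36 genes. The 18S ribosomal RNA row was above 0 only in control replicate 2. The part of these differences in the levels of the set was not tested.

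**Figure D1:**
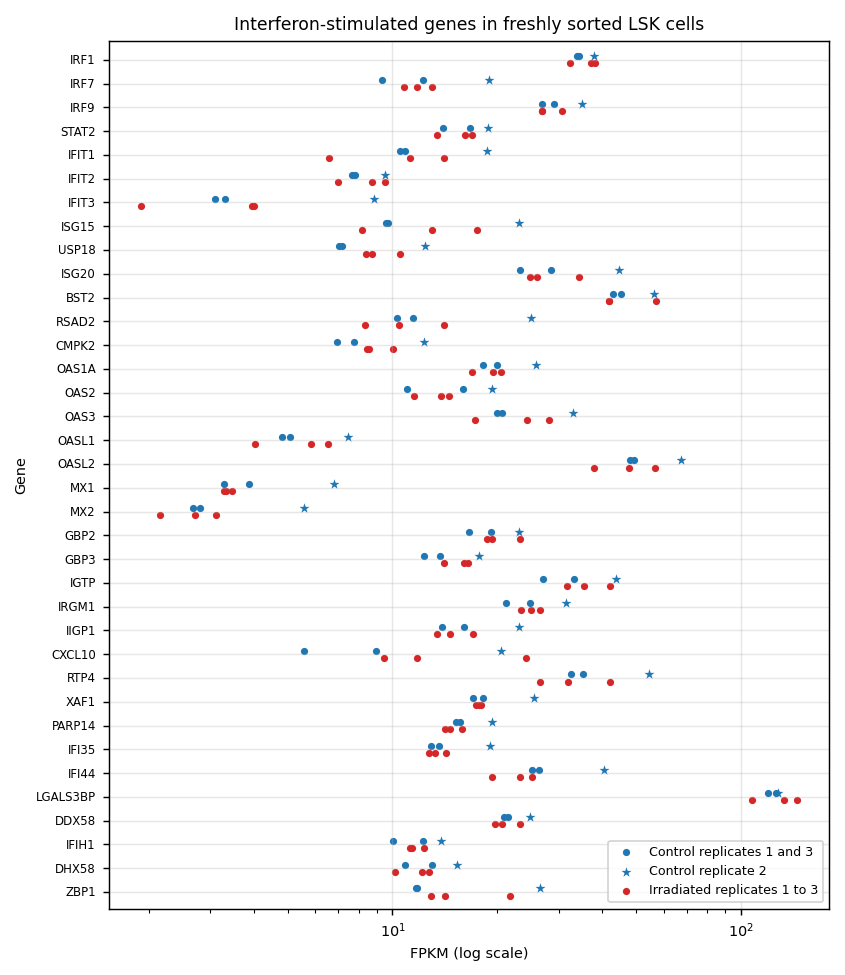
FPKM (log scale) of the 36 interferon-stimulated genes in freshly sorted LSK cells, 1 point per library, with controls in blue and irradiated libraries in red. The star is control replicate 2, which lies above the other 2 controls in all 36 genes, while the irradiated points overlap the controls in every gene.

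Most of the set stood far lower in cultured than in freshly sorted cells. Because the 2 tables were normalized separately, each gene was placed by its percentile among the names above 0 in its own library, as a description with no test. All 36 genes had a lower mean percentile in control cultures than in freshly sorted controls, with a median over the genes of 41.4 against 71.6. IFI44, an interferon-induced protein of the cytoplasm, moved most, by -61.3 points, from 30.6 ± 8.51 FPKM in freshly sorted controls to 0.324 ± 0.0614 in control cultures. The immunity-related GTPase gene IIGP1 was at 17.7 ± 4.81 and 0.117 ± 0.0532 FPKM in the same groups, and OASL2, an oligoadenylate synthetase-like gene, at 54.9 ± 10.9 and 1.90 ± 0.108. RTP4, a chaperone of G protein-coupled receptors that interferon induces, was at 40.6 ± 12.0 and 1.31 ± 0.248 FPKM. At the other end, BST2, the tetherin that holds budding virus at the cell surface, changed its percentile by -0.48 points and IRF1, a transcription factor induced by interferon gamma, by -3.2 points. In FPKM both stood higher in culture, BST2 at 48.1 ± 7.11 and 61.8 ± 1.94 and IRF1 at 35.2 ± 2.21 and 37.1 ± 2.98. Ribosomal or small RNA-like rows held 24.0 to 29.6% of the summed FPKM in freshly sorted libraries and 2.96 to 4.15% in cultures. The percentile shift was not computed for other genes.

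**Figure D2:**
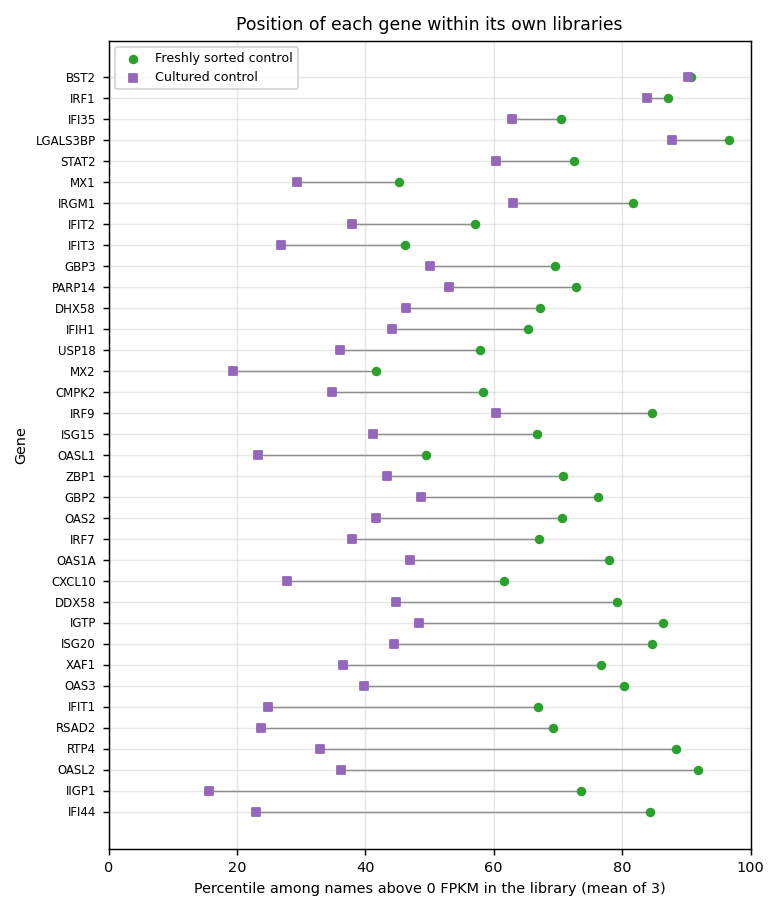
Percentile of each interferon-stimulated gene among names above 0 FPKM, as the mean of 3 freshly sorted control libraries (green circles) and 3 control cultures (purple squares). Every square lies to the left of its circle, by -0.48 points in BST2 at the top and by -61.3 points in IFI44 at the bottom.

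In culture 29 of the 36 genes passed the minimum mean of 1 FPKM over the 12 libraries, and 7 did not (IFI44, IFIT1, IFIT3, IIGP1, MX2, OASL1 and RSAD2). Control cultures with DL1 had higher levels of most of the set than those without it. Of the 29 tested genes 20 rose, none fell and 9 did not pass, while 14% of all 12011 genes tested rose and 12.3% fell. The median log2 fold change of the 29 was 0.34, against 0.037 over all genes. With values rescaled by median ratios, 19 of the 29 genes rose and 0 fell, while the split over all genes went from 1677 higher and 1479 lower to 1268 higher and 1712 lower.

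Among the tested genes, those of the ISG15 system had the largest changes on the log2(FPKM + 1) scale in these control cultures. USP18, the protease that removes ISG15 from proteins and also shuts off the type I interferon receptor, was at 2.06, 1.48 and 2.18 FPKM without DL1 and at 7.02, 5.51 and 5.46 with it. Its group mean was 3.15 times higher with DL1 (1.27 ± 0.17, adjusted p = 0.000159). ISG15 itself was at 3.37, 2.36 and 3.90 FPKM without and at 9.04, 7.16 and 8.87 with DL1. Every DL1 library lay above every library without it for both genes, and ISG15 rose by 1.16 ± 0.18 (adjusted p = 0.000432).

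Among the transcription factors, 3 of 4 rose with DL1 in control cultures. IRF7, the factor that amplifies interferon alpha production, was at 2.32, 1.88 and 2.82 FPKM without DL1 and at 5.13, 4.29 and 4.21 with it (0.74 ± 0.12, adjusted p = 0.000871). IRF1 was at 35.4, 35.4 and 40.5 FPKM without and 46.3, 45.3 and 46.0 with DL1 (0.30 ± 0.068, adjusted p = 0.00603). The groups did not overlap in either gene. STAT2, a subunit of the type I complex, rose by 0.25 ± 0.079 (adjusted p = 0.0358), a call lost without each of control replicates 1 and 2 and DL1 replicates 1 and 2 in turn, with adjusted p up to 0.151, and also under median-ratio scaling (adjusted p = 0.0865), without a filter (0.0584) and after rescaling without ribosomal RNA-like rows (0.0726). IRF9, the DNA-binding subunit of that complex, was at 11.1 ± 1.19 FPKM without and 12.5 ± 0.279 with DL1 and did not pass (0.17 ± 0.093, adjusted p = 0.207).

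Of the antiviral effectors that could be tested, BST2, ISG20 and CMPK2 all rose. BST2 had the highest FPKM of the set in control cultures, at 59.8, 61.8 and 63.7 FPKM without and at 95.6, 90.6 and 100.2 with DL1 (0.62 ± 0.051, adjusted p = 5.7e-06). ISG20, an exonuclease that degrades RNA, was at 3.95, 3.97 and 4.57 without and at 7.14, 7.12 and 7.16 with DL1 (0.66 ± 0.079, adjusted p = 7.4e-05). The DL1 values of both genes were close together and stood clear of those without DL1. CMPK2, a mitochondrial nucleotide kinase, rose by 0.32 ± 0.087 (adjusted p = 0.0165), which was lost without control replicate 2 (adjusted p = 0.0629) or without DL1 replicate 1 (0.0503).

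In the OAS family, whose enzymes make the messenger that activates RNase L, 2 of 4 tested genes rose. OASL2 was at 1.92, 1.79 and 2.002 FPKM without and at 4.03, 3.71 and 3.85 with DL1 (0.74 ± 0.12, adjusted p = 0.000607). The groups were far apart relative to their spread. OAS1A rose by 0.35 ± 0.097 (adjusted p = 0.0191), and lost the call without control replicate 1 (adjusted p = 0.0763), control replicate 2 (0.0678) or DL1 replicate 1 (0.0899). OAS2 and OAS3 did not pass, at 0.20 ± 0.12 and 0.26 ± 0.12. Genes of the OAS, GBP, IFIT, MX and IRG families resemble one another, and the counting behind the FPKM may split reads between relatives, so their separate values are uncertain.

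Of 5 tested interferon-inducible GTPases, some of which attack the vacuoles of intracellular pathogens, 3 rose with DL1 in control cultures. GBP2 was at 5.35, 4.73 and 6.81 FPKM without and at 9.43, 10.4 and 10.3 with DL1 (0.75 ± 0.17, adjusted p = 0.00661). IGTP was at 5.48, 4.85 and 6.14 without and at 7.93, 8.24 and 8.07 with DL1 (0.49 ± 0.078, adjusted p = 0.000587). IRGM1, a regulator of the other IRG GTPases that is needed for stem cell maintenance during infection, was at 12.8, 12.3 and 12.4 without and at 16.3, 15.9 and 16.2 with DL1 (0.34 ± 0.045, adjusted p = 0.00013). No library without DL1 reached the level of a library with it in these 3 genes. GBP3 stayed at 6.09 ± 0.218 FPKM without and 6.08 ± 0.388 with DL1, and MX1, at 0.814 ± 0.211 and 1.11 ± 0.0666, did not pass (0.23 ± 0.11, adjusted p = 0.168).

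The 3 receptors of viral RNA in the cytoplasm rose together in control cultures with DL1, and the Z-nucleic acid sensor ZBP1 did not. DDX58, which encodes RIG-I, was at 4.04, 4.09 and 4.57 FPKM without and at 6.83, 6.81 and 7.92 with DL1 (0.64 ± 0.093, adjusted p = 0.000276). DHX58, which encodes LGP2, rose by 0.38 ± 0.077 (adjusted p = 0.00275). IFIH1, which encodes MDA5, rose by 0.40 ± 0.10 (adjusted p = 0.0111), a call lost without DL1 replicate 3 (adjusted p = 0.0547). ZBP1 had values of 3.64, 3.16 and 4.72 FPKM without and 3.30, 3.37 and 2.82 with DL1, with overlapping groups (-0.21 ± 0.18, adjusted p = 0.445).

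CXCL10 was at 0.598, 0.670 and 0.675 FPKM in control cultures and at 1.66, 2.36 and 1.42 with DL1 (0.76 ± 0.17, adjusted p = 0.00506). Of the other interferon-induced genes, RTP4 was at 1.22, 1.11 and 1.59 FPKM without and at 3.12, 3.16 and 2.96 with DL1 (0.83 ± 0.11, adjusted p = 0.000198). IFI35, a partner of the interferon-induced protein NMI, rose by 0.28 ± 0.050 (adjusted p = 0.00121) and LGALS3BP by 0.18 ± 0.044 (adjusted p = 0.01). The groups did not overlap in these 4 genes. XAF1, an inhibitor of anti-apoptotic XIAP, and PARP14, an ADP-ribosyltransferase, were at 0.18 ± 0.077 and 0.12 ± 0.11 and did not pass, nor did IFIT2, which binds viral RNA, at 0.11 ± 0.074.

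**Figure D3:**
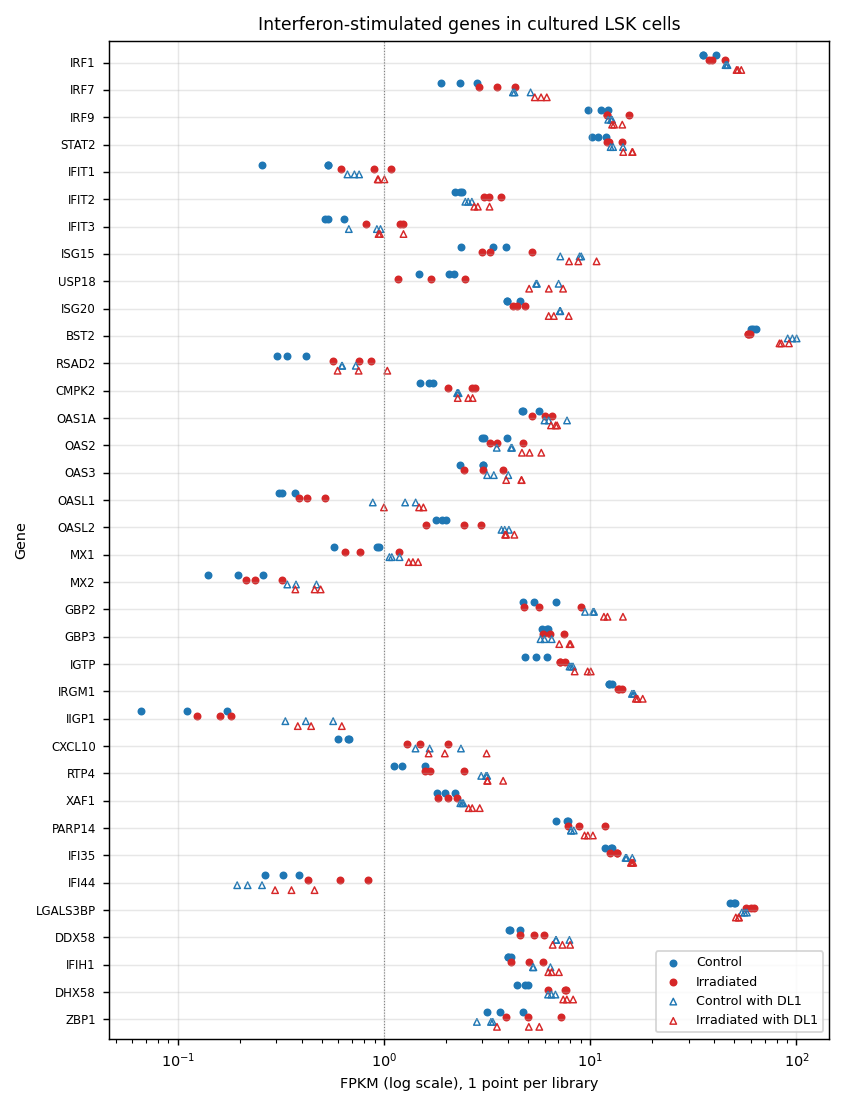
FPKM (log scale) of the 36 interferon-stimulated genes in the 12 cultured libraries, 1 point per library, with controls in blue, irradiated in red, and open triangles for DL1. The dotted line marks 1 FPKM, and in ISG15, USP18, BST2 and ISG20 the triangles of both colours lie to the right of all circles.

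In irradiated cultures with DL1, too, most of the set stood higher. Of the 29 tested, 19 rose, 1 fell and 9 did not pass, against 24.4% of all genes that rose and 17% that fell. The median was 0.33, against 0.061 over all genes. Under median-ratio scaling 17 of the 29 rose and 1 fell, and the split over all genes went from 2932 higher and 2041 lower to 2040 higher and 2460 lower. A group of 15 genes passed upward with DL1 in both control and irradiated cultures (BST2, DDX58, GBP2, IFI35, IFIH1, IGTP, IRF1, IRF7, IRGM1, ISG15, ISG20, OASL2, RTP4, STAT2 and USP18). The share of all genes tested that rose in both was not computed. These 2 comparisons share no library, although all 4 groups gave the estimate of spread in 1 fit.

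USP18 was again the gene with the highest fold change in irradiated cultures. It was at 2.47, 1.68 and 1.17 FPKM without and at 7.38, 5.05 and 6.29 with DL1 (1.398 ± 0.17, adjusted p = 5.3e-05). ISG15 was at 5.24, 3.25 and 2.98 without and at 8.75, 10.7 and 7.89 with DL1 (1.09 ± 0.18, adjusted p = 0.000494). GBP2 was at 9.01, 5.65 and 4.76 without and at 14.4, 12.1 and 11.6 with DL1 (0.91 ± 0.17, adjusted p = 0.00128). In all 3 genes irradiated replicate 1 was the highest library without DL1, and it stayed below the 3 libraries with DL1.

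RTP4 rose by 0.61 ± 0.11 in irradiated cultures with DL1 (adjusted p = 0.00128), OASL2 by 0.61 ± 0.12 (adjusted p = 0.00168), IRF7 by 0.58 ± 0.12 (adjusted p = 0.00317) and BST2 by 0.55 ± 0.051 (adjusted p = 7.0e-06). ISG20 rose by 0.53 ± 0.079, DDX58 by 0.40 ± 0.093, IRF1 by 0.36 ± 0.068, IGTP by 0.33 ± 0.078, IRGM1 by 0.29 ± 0.045, XAF1 by 0.29 ± 0.077 and IFI35 by 0.26 ± 0.050, with adjusted p from 0.000269 for ISG20 to 0.0106 for XAF1. These 11 calls and those of USP18, ISG15 and GBP2 were kept in every alternative run that tested the gene.

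The remaining 5 upward calls in irradiated cultures depended on single libraries. OAS3 rose by 0.41 ± 0.12, MX1 by 0.37 ± 0.11, OAS2 by 0.36 ± 0.12, IFIH1 by 0.35 ± 0.10 and STAT2 by 0.25 ± 0.079, with adjusted p between 0.0162 and 0.0317. IFIH1 was lost only without DL1 replicate 1 (adjusted p = 0.0592). OAS3 and MX1 were each lost without 3 of the 6 libraries in turn and OAS2 and STAT2 each without 4, with adjusted p up to 0.0568, 0.0923, 0.112 and 0.0948 respectively. OAS2 and STAT2 were also lost under median-ratio scaling (adjusted p = 0.0713 and 0.0858), OAS2 without a filter (0.064) and with the 2 groups alone (0.0609), and MX1 with the 2 groups alone (0.0558).

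**Figure D4:**
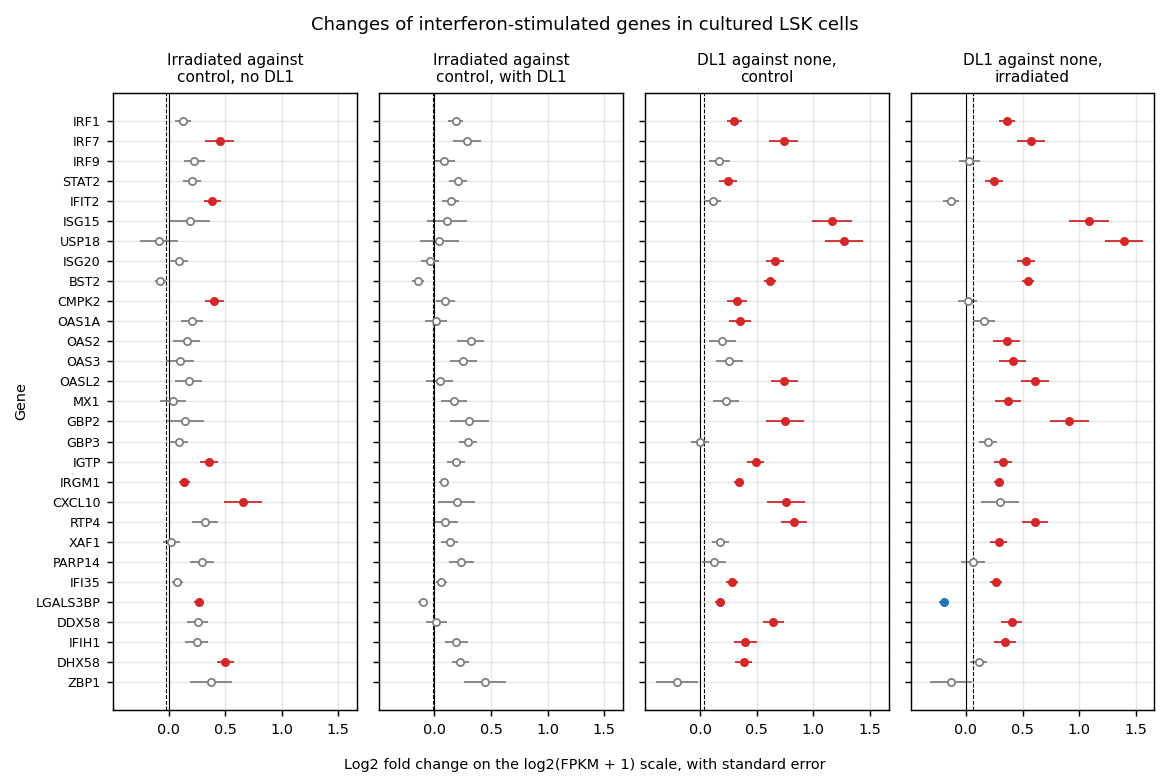
Difference of log2(FPKM + 1) between groups, ± SE, of the 29 tested interferon-stimulated genes in the 4 culture comparisons. Filled red points rose, the filled blue point fell, open grey points did not pass, and the dashed line is the median of all genes tested, from -0.026 to 0.061 across the panels.

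Without DL1, cultures from irradiated mice had modestly higher levels of some of the set than control cultures. Of the 29 tested genes 8 rose (27.6%) and none fell, against 13.8% of all genes that rose and 15.9% that fell. The median was 0.20, against -0.026 over all genes, and 27 of the 29 values were above 0. Under median-ratio scaling the split over all genes went from 1659 higher and 1909 lower to 2014 higher and 1480 lower, and 12 of the 29 genes rose, the 8 among them. This comparison shares its control cultures with that of DL1 in control cultures.

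DHX58 was at 4.85, 4.39 and 5.002 FPKM in control and at 7.58, 7.63 and 6.24 in irradiated cultures (0.50 ± 0.077, adjusted p = 0.00102). CXCL10 was at 0.598, 0.670 and 0.675 in control and at 2.04, 1.499 and 1.29 in irradiated cultures (0.65 ± 0.17, adjusted p = 0.0133). IFIT2 was at 2.32, 2.20 and 2.39 in control and at 3.67, 3.24 and 3.06 in irradiated cultures (0.39 ± 0.074, adjusted p = 0.00347). The groups did not overlap in these 3 genes. LGALS3BP rose by 0.27 ± 0.044 (adjusted p = 0.00149), CMPK2 by 0.40 ± 0.087 (adjusted p = 0.00603) and IGTP by 0.35 ± 0.078 (adjusted p = 0.00676). IRF7 rose by 0.45 ± 0.12 (adjusted p = 0.0192), although its lowest irradiated value, 2.87 FPKM, stood just above its highest control value, 2.82. IRGM1 rose by 0.14 ± 0.045 (adjusted p = 0.036), from 12.5 ± 0.253 to 13.9 ± 0.335 FPKM.

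Of these 8 calls 5 were kept in every alternative that tested the gene. The call of IRGM1 was lost without any 1 of the 6 libraries, with adjusted p up to 0.119, after rescaling without ribosomal RNA-like rows (0.0625) and with the 2 groups alone (0.129). That of IRF7 was lost without control replicate 2 (adjusted p = 0.0859), without irradiated replicate 1 (0.0793) and with the 2 groups alone (0.0697), and that of CXCL10 without irradiated replicate 1 (0.0558). Irradiated replicate 1 was the highest of its group in 29 of the 36 genes, against 31.2% of all genes tested. Without it 5 of the 29 genes rose, and without irradiated replicate 3, the lowest of its group in 23 of the 36, 15 did.

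Of the 8 genes that rose here, all but IFIT2 also rose with DL1 in control cultures, a comparison that shares the control libraries. The number of all genes tested that rose in both was not computed. USP18, ISG15 and BST2 were among those that passed with DL1 and not here. USP18 had values of 2.06, 1.48 and 2.18 FPKM in control and 2.47, 1.68 and 1.17 in irradiated cultures, which overlapped (-0.084 ± 0.17, adjusted p = 0.745). ISG15 was at 3.21 ± 0.781 and 3.83 ± 1.23 FPKM (0.18 ± 0.18, adjusted p = 0.466). BST2 was at 61.8 ± 1.94 and 58.7 ± 0.777 FPKM, the irradiated libraries lying below the controls without passing the test (-0.073 ± 0.051, adjusted p = 0.305). Among all 21 genes that did not pass, PARP14, RTP4 and DDX58 were nearest to the threshold, with adjusted p of 0.0528, 0.0529 and 0.0544.

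With DL1 present, no gene of the set passed between irradiated and control cultures, where 3.16% of all genes passed in either direction. Of the 29, 11 had an unadjusted p under 0.05, against 2231 of all 12011 genes, and 26 of 29 values were above 0 with a median of 0.14, against -0.017 over all genes. In 16 genes the irradiated libraries lay wholly above the controls and in 1, LGALS3BP, wholly below, against 15.6% and 17.5% of all genes. GBP3 had the smallest adjusted p, 0.0709, at 5.74, 6.499 and 5.997 FPKM in control and 8.03, 7.93 and 7.07 in irradiated cultures with DL1 (0.29 ± 0.079). ZBP1 had the highest fold change, at 3.30, 3.37 and 2.82 against 5.03, 5.66 and 3.53 FPKM (0.45 ± 0.18, adjusted p = 0.221). With these 2 groups fitted alone, IRF1, PARP14 and GBP3 passed upward, with adjusted p of 0.0215, 0.032 and 0.04.

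Whether the irradiation change itself differed by DL1 was tested as an interaction. None of the 29 genes passed, against 9 of 12011 genes (0.0749%), and 4 had an unadjusted p under 0.05, against 1255 of all genes (LGALS3BP, DHX58, CMPK2 and IFIT2, all lower with DL1). LGALS3BP was nearest to the threshold, at -0.37 ± 0.062 (adjusted p = 0.0611). It was at 49.97, 47.8 and 50.1 FPKM in control cultures and at 59.9, 56.9 and 62.0 in irradiated cultures without DL1. With DL1 it was at 54.3, 57.5 and 55.9 in control and at 52.4, 50.8 and 52.7 in irradiated cultures. Irradiated libraries were thus above all controls without DL1 and below all of them with it, and LGALS3BP was the 1 gene that fell with DL1 in irradiated cultures (-0.19 ± 0.044, adjusted p = 0.0042). The adjusted p of the difference was 0.045 with a pseudocount of 5, 0.043 under median-ratio scaling and 0.0293 without irradiated replicate 3, and up to 0.175 in the other alternatives.

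With DL1, 5 genes passed upward in control cultures alone (CMPK2, CXCL10, DHX58, LGALS3BP and OAS1A) and 4 in irradiated cultures alone (MX1, OAS2, OAS3 and XAF1). The matching shares of all genes tested were not computed. In none of these 9 did the test of the difference pass. GBP3, IRF9, PARP14 and ZBP1 rose neither with DL1 nor after irradiation without DL1.

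The 7 genes under the minimum in culture were fitted together with all other names when the filter was left out. OASL1, a paralog that restrains IRF7 translation, was at 0.309, 0.318 and 0.370 FPKM in control cultures and at 0.882, 1.42 and 1.27 with DL1 (0.71 ± 0.11, adjusted p = 0.00124). In irradiated cultures it rose by 0.69 ± 0.11 (adjusted p = 0.000973). IIGP1 and MX2 also rose with DL1 in both control and irradiated cultures. In control cultures the group mean of IIGP1 was 3.76 times higher with DL1 and that of OASL1 3.58 times. RSAD2 rose with DL1 in control cultures, where it was at 0.420, 0.303 and 0.339 without and at 0.627, 0.729 and 0.624 FPKM with DL1 (0.29 ± 0.088, adjusted p = 0.0444). After irradiation without DL1, RSAD2, IFIT1, IFIT3 and IFI44 rose, for example IFIT3 from 0.564 ± 0.0653 to 1.08 ± 0.233 FPKM (0.41 ± 0.094, adjusted p = 0.018). IFI44 ran against most of the set, since it fell with DL1 in irradiated cultures (-0.24 ± 0.080, adjusted p = 0.0483), from 0.626 ± 0.205 to 0.371 ± 0.0829 FPKM with overlapping groups. All of these levels were near or under 1 FPKM, where the log2(FPKM + 1) scale understates a change.

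The interferons themselves were hardly detected. All 21 listed ligand genes were under 1 FPKM in every library, the highest single value was 0.628, and IFNB1, the gene of interferon beta, was listed at 0 in both freshly sorted groups and in 3 of the 4 culture groups. None could be tested. Some receptor chains fell with DL1. IFNGR1, the ligand-binding chain of the interferon gamma receptor, was at 134, 124 and 136 FPKM in control cultures and at 68.5, 76.3 and 69.1 with DL1 (-0.87 ± 0.076, adjusted p = 7.5e-06). IL10RB, a chain of the interferon lambda and interleukin-10 receptors, fell by 0.70 on the log2 scale (SE 0.085, adjusted p = 7.5e-05) and IFNAR1 fell by 0.30 (SE 0.074, adjusted p = 0.0101). Thus 3 of 9 tested genes fell with DL1 in control cultures and none rose, against 12.3% of all genes that fell and 14% that rose. In irradiated cultures 4 of 9 fell with DL1 and 1 rose, against 17% of all genes that fell and 24.4% that rose. After irradiation without DL1, IFNGR1 (0.53 ± 0.076, adjusted p = 0.000782), IL10RB (0.44 ± 0.085, adjusted p = 0.00339) and the kinase gene TYK2 (0.23 ± 0.068, adjusted p = 0.0239) rose and none fell. Over all genes tested, 13.8% rose and 15.9% fell in this comparison.

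Genes of antigen presentation that interferon also induces fell and rose in like numbers with DL1. In control cultures 4 of 14 rose and 6 fell, against 14% and 12.3% of all genes tested. Those that fell included the class I heavy chain genes H2-D1, from 269 ± 15.3 to 144 ± 11.2 FPKM (-0.90 ± 0.068, adjusted p = 2.9e-06), and H2-K1 (-0.60 ± 0.059, adjusted p = 1.7e-05). NLRC5, the class I transactivator, and TAP2, a subunit of the peptide transporter, fell as well (-0.79 ± 0.095 and -0.40 ± 0.052). In irradiated cultures 4 rose and 6 fell, against 24.4% and 17% of all genes tested, and H2-D1 changed by -1.19 ± 0.068 (adjusted p = 2.6e-07). After irradiation without DL1, 8 of 14 rose and none fell, against 13.8% and 15.9% of all genes tested. Those that rose were led by TAP2 (0.50 ± 0.052, adjusted p = 0.000145) and H2-D1 (0.61 ± 0.068, adjusted p = 0.000181). With DL1 present 4 of 14 rose after irradiation (TAP2, TAP1, PSMB8 and H2-D1), while 3.16% of all genes passed in either direction.

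A further list held 42 other interferon-stimulated genes, 39 of them tested in culture. With DL1, 11 rose and 6 fell in control and 9 rose and 7 fell in irradiated cultures, and their medians were 0.053 and 0.046. Over all genes tested, 14% rose and 12.3% fell in control cultures, and 24.4% rose and 17% fell in irradiated cultures. The medians over all genes were 0.037 and 0.061, so the median of this wider list lay slightly above that of all genes in control cultures and below it in irradiated cultures. The share of the list that rose was above that of all genes in control cultures and close to it in irradiated cultures. TGTP2, a T cell-specific GTPase of the IRG family, went from 1.44 ± 0.110 to 5.10 ± 0.172 FPKM in control cultures (1.32 ± 0.085, adjusted p = 1.15e-06), while IFI204, a DNA-binding protein of the IFI200 family, fell by 0.81 (SE 0.13, adjusted p = 0.000778). After irradiation without DL1, 12 rose and 2 fell, against 13.8% of all genes that rose and 15.9% that fell. SP100, a nuclear body protein, rose by 0.52 ± 0.071 (adjusted p = 0.000607). In freshly sorted cells none of the tested genes passed, nor did any of the receptor and antigen presentation lists.

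Among nucleic acid sensors outside the set, 2 of 12 rose and 4 fell with DL1 in control cultures, against 14% and 12.3% of all genes tested. The endosomal RNA receptors TLR7 and TLR8 fell by 1.10 and 1.16 (adjusted p = 0.000205 and 0.000253), while TMEM173, which encodes the adaptor STING, rose by 0.58 ± 0.089 (adjusted p = 0.000402). Of 8 negative regulators, the phosphatase gene PTPN6 rose (0.33 ± 0.060, adjusted p = 0.00153) and SOCS3, a feedback inhibitor of cytokine receptors, fell (-0.57 ± 0.12, adjusted p = 0.00456). Among 5 tested interferon regulatory factors outside the set, IRF4, which acts in lymphocytes and dendritic cells, rose (0.67 ± 0.13, adjusted p = 0.00247) and IRF8, which acts in monocytes and dendritic cells, fell (-0.42 ± 0.086, adjusted p = 0.00348).

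**Figure D5:**
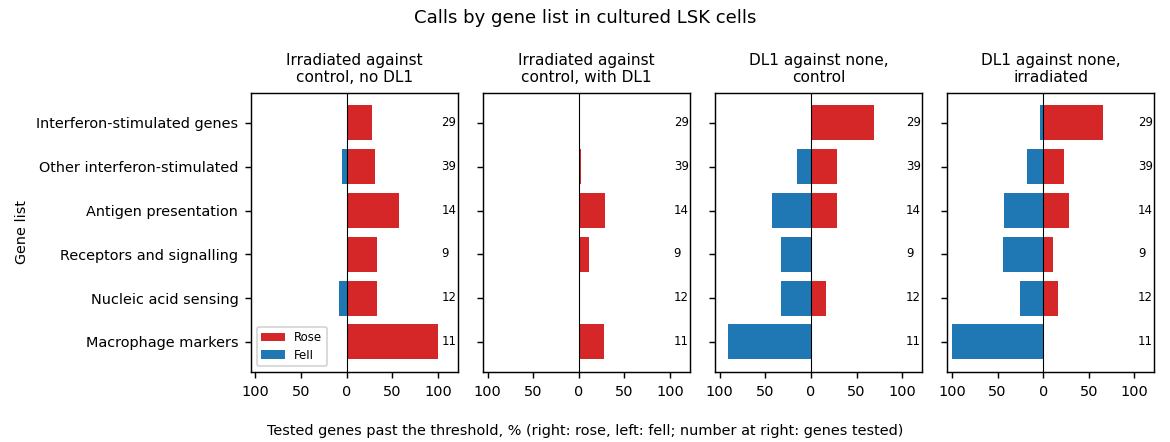
Share of the tested genes of each list that rose (red, right) or fell (blue, left) in the 4 culture comparisons, with the number tested at the right edge of each panel. The interferon-stimulated genes and the macrophage markers stand on opposite sides in the DL1 panels, with 20 of 29 risen and 10 of 11 fallen in control cultures.

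Markers of differentiated cells moved beside these results. The summed FPKM of 12 macrophage markers was 338, 267 and 414 in control cultures and 820, 645 and 525 in irradiated cultures without DL1, and 11 of the 11 tested rose. Both this sum and the interferon-stimulated genes were highest in irradiated replicate 1. With DL1 the sums were 147, 162 and 139 in control and 215, 216 and 202 in irradiated cultures, and 10 and 11 of 11 tested markers fell. Of 6 monocyte markers 3 rose, of 6 tested neutrophil markers 4 and of 4 tested megakaryocyte markers 3 after irradiation without DL1. The 6 megakaryocyte markers summed to 95.9, 80.9 and 109 FPKM in control and to 277, 257 and 199 in irradiated cultures, again highest in irradiated replicate 1. With DL1, 5 monocyte markers fell in control and 4 in irradiated cultures. Of 12 stem and progenitor cell markers, 9 were tested in culture. After irradiation without DL1, 3 of them fell and none rose, against 15.9% of all genes that fell and 13.8% that rose. With DL1, 3 rose and 2 fell in control cultures, against 14% and 12.3% of all genes. In irradiated cultures 4 rose and 3 fell with DL1, against 24.4% and 17%. Most of the set rose with DL1, where macrophage markers fell, and part of it rose after irradiation without DL1, where they rose. Whether macrophages or the other marked cells had a part in either change was not tested.

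Summed levels of some other marker lists were higher with DL1 in control cultures, although few of their genes could be tested. The 6 plasmacytoid dendritic cell markers summed to 0.600, 0.659 and 0.902 FPKM in control cultures and to 4.34, 3.63 and 5.95 with DL1, the single tested marker CD300C rose (1.49, adjusted p = 1.4e-05), and KLK1 was at 0 in all cultures. Their defining marker SIGLECH was at most 0.279 FPKM in any culture. The 11 T and NK cell markers summed to 20.3, 23.4 and 20.5 in control cultures and to 51.6, 54.8 and 62.0 with DL1, where GZMB, a cytotoxic protease gene, rose (3.20, adjusted p = 2.0e-10). In irradiated cultures without DL1 their sums were 49.8, 62.7 and 46.0, and both tested markers had risen. In irradiated cultures with DL1 they were 63.98, 70.1 and 57.9, which overlapped those without it, and 1 of the 2 tested markers rose with DL1. Of the 11 markers, 9 were under 1 FPKM in every library of each group without DL1, and 8 in each group with it. A single gene held 21.7 of the 23.4 FPKM in control replicate 2 and 60.9 of the 62.7 in irradiated replicate 2, both without DL1. CD3E, which marks T cells, was at most 0.105 FPKM in any culture. Of 5 tested conventional dendritic cell markers 3 rose with DL1 in both control and irradiated cultures. The part of these cells in the levels of the interferon-stimulated genes was not tested.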

How the data were processed

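The authors deposited 2 tables of gene-level FPKM, 1 of 6 freshly sorted and 1 of 12 cultured libraries. TopHat 1.4.1, Cufflinks 1.3.0 and Cuffdiff were used, per the submitters' processing notes, which give hg19, a human build, for these mouse samples. Annotation and filters are not given in the sources used here. FPKM carry no read counts, so no count test was used. RNA came from miRNeasy columns and TruSeq libraries, per the labels' protocols.

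Columns were mapped by title, 0 were left unmapped, and 1 column that writes its number ahead of DL1 was read as replicate 1 of irradiated cells with DL1. Control samples have a source field that names irradiated cells, and titles and conditions were used. Of 25629 rows, 28 repeated a name, and 25601 names were kept. Because each table had its own normalization, tests stayed within a table. Separate mice are stated for cultures, and p-values measure the spread between these libraries.

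Names with a mean FPKM of at least 1 in a table were put on a log2 scale after adding 1 and fitted in limma (version 3.58.1, under R 4.3.3, empirical Bayes with a trend, Benjamini-Hochberg adjustment over all genes tested, threshold 0.05). The 4 cultured groups shared 1 fit. The fits were tested on simulated data. Genes of the set that passed were named, with the 25 smallest p if more passed, others by counts and examples, and at most 4 genes per further list and comparison. Other genes named were chosen after their values were seen. The members and lists were chosen with earlier results of these data known. Results were recomputed without a filter or with a minimum mean of 5 FPKM, with 0.1 or 5 as pseudocount, and with median-ratio scaling, rescaling without ribosomal or small RNA-like rows, a replicate block, the 2 groups alone, and leaving out each library. In irradiated cultures without and with DL1, deviations from the group means of the 3 same-numbered pairs correlated at 0.145 to 0.355, and those of the other 6 pairs at -0.254 to 0.0436. The pairing of these 2 groups comes from the data, since the labels do not say what the numbers share.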

Additional observations from a re-analysis of the deposited data

Results flagged for a closer look

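The irradiated libraries lay on opposite sides of the controls for LGALS3BP without and with DL1. Its log2 fold change in irradiated against control cultures was 0.269 without DL1, with every irradiated library above every control, and -0.104 with DL1, with every irradiated library below every control. The second of these did not pass the test (limma, adjusted p = 0.232). Read the other way, DL1 against none gave 0.178 in control and -0.194 in irradiated cultures, again with no overlap. These pairs describe 1 and the same interaction, whose test gave -0.37 ± 0.062 (limma, adjusted p = 0.0611) and did not pass.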

How the results depend on the processing

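No gene of the set passed in freshly sorted cells, and no result changed its direction past the threshold, under any alternative run. After irradiation without DL1, 8 genes passed, against 5 with a mean of at least 5 FPKM, which tests 17 genes, and 5 to 15 when a library was left out. After irradiation with DL1, 0 passed, against 3 with the 2 groups alone. With DL1 in irradiated cultures, 20 passed, against 12 with a mean of at least 5 FPKM. For the difference between changes, 0 passed, against 1 (LGALS3BP) with a pseudocount of 5, 1 under median-ratio scaling and 0 to 1 when a library was left out. Apart from the smaller number of genes tested, the cause was not tested. The median of the set with DL1 in control cultures was 0.34, and 0.44 and 0.24 with pseudocounts of 0.1 and 5. Median-ratio scaling moved the median of all genes by at most 0.053.

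Outside irradiated cultures without and with DL1, replicate numbers did not pair libraries by the rule of every pair above 0.1. Deviations of same-numbered libraries correlated above 0.1 in 6 of 18 pairs in cultures, 3 of them in those 2 groups, and in 2 of 3 in freshly sorted cells (0.0571 to 0.211), against 0 of 6 differently numbered pairs there. With a replicate block 20 genes passed with DL1 in control cultures, 20 in irradiated cultures, 10 after irradiation without DL1, among them the 8 passing without it, and 0 in the other 3 comparisons. With the block in a fit of irradiated cultures alone, chosen after seeing the data, 20 passed with DL1, all called without it. With 3 libraries per group, FPKM near or under 1 and irradiated replicate 2 with DL1 at a relative depth of 0.488 limit what could be detected.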
